A study of Homo sapiens with 24 samples.

Results

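The comparison set the renal cell carcinoma line Caki-1 against the renal cell carcinoma line 769-P, both kept in DMSO, the solvent of the drug used elsewhere in the study. Its members were the arrays labelled as controls, 3 of Caki-1 and 3 of 769-P, which made 6 of the 24 arrays of the study. The other arrays held the same lines after 6, 12 or 24 h of 1 µM dasatinib, a drug that blocks ABL and SRC-family kinases, and served here for the spread, the filter, the choice of probe set and the line difference under the drug. RNA was read on Affymetrix PrimeView arrays, on which each probe set reports the level of a transcript near its 3' end. The labels name no engineered allele in either line and give the DMSO arrays no time.

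As background, Caki-1 was established from a skin metastasis of a clear cell renal carcinoma and carries wild-type VHL, and 769-P was established from a primary clear cell renal carcinoma and lacks functional VHL. VHL is the substrate receptor of a ubiquitin ligase that marks the alpha subunits of hypoxia-inducible factors (HIF) for degradation, and its loss is the founding event of most clear cell renal carcinomas. Clear cell tumours are thought to arise from the proximal tubule, and renal carcinoma lines usually keep the kidney transcription factor PAX8 while carrying both epithelial keratins and the mesenchymal filament vimentin. Each line stands for 1 tumour, so the differences below are between these 2 lines and not between classes of tumour.

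Values are log2 signals, so that a difference of 1 is a 2-fold difference, and all differences are Caki-1 minus 769-P. Genes were tested in limma over all 12862 genes that passed a filter on dim signal, and a gene was called where its p-value, adjusted by the Benjamini-Hochberg method over all of them, was under 0.05. The arrays of a line are labelled biological replicates, and nothing says whether they came from separate cultures, so the p-values measure the spread between these arrays, which may be technical. Over all probe sets, the arrays correlated at 0.996 to 0.997 within Caki-1 DMSO, at 0.994 to 0.997 within 769-P DMSO and at 0.946 to 0.948 between the lines. Array medians lay between 6.01 and 6.04 in the 6 arrays, and no array stood apart. Scan times and slides are not given in the sources used here, so a batch shared by all arrays of a line cannot be told apart from the line.

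Markers of the labelled renal origin were read first. PAX8, the most kidney-specific of the 3 shown, read 10.14, 9.97 and 9.88 in Caki-1, against 9.90, 9.74 and 9.73 in 769-P. VIM, which encodes vimentin, read 14.75, 14.71 and 14.73 in Caki-1, against 14.86, 14.87 and 14.89 in 769-P. The simple-epithelial keratin KRT18 read 12.24, 12.27 and 12.26 in Caki-1, against 12.61, 12.52 and 12.35 in 769-P. All 3 genes were thus bright in every array of both lines, though VIM and KRT18 are also found in many other tissues. Many markers of the mature nephron were dim: 14 of 40 proximal tubule genes with a probe set, among them LRP2 and AQP1, 12 of 24 distal nephron genes, among them SLC12A1, and 6 of 25 renal lineage factors did not pass the filter in either line. Of 10 tested leukocyte markers, 1 was called higher in Caki-1 (CD14, by 2.22 ± 0.18, SE) and 1 higher in 769-P (CD68, a difference of -0.62), and none of 6 tested endothelial markers was called in either direction. The other 10 leukocyte and 8 endothelial markers with a probe set did not pass the filter on dim signal.

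The untreated lines differed in most of the transcriptome. Of 12862 genes tested, 7549 were called, which is 58.7%. Among them 3700 were higher in Caki-1 (28.8% of the genes tested) and 3849 were higher in 769-P (29.9%). Most of these differences were small: the median size was 0.31 over all tested genes and 0.58 over called genes, and 5654 called genes were under 2-fold. Differences of at least 2-fold were called in 1061 genes higher in Caki-1 (8.25%) and in 834 genes higher in 769-P (6.48%). The imbalance grew with size, with 439 genes at least 4-fold higher in Caki-1 and 254 in 769-P, 133 and 55 genes at least 16-fold, and 38 and 6 genes at least 64-fold. A gene was tested where it passed the filter in at least 1 line, so a gene that entered through 1 line only was favoured to differ. Of 512 genes that passed only in Caki-1, 437 were called higher there. Of 442 that passed only in 769-P, 293 were called higher there. Counts of list members include such genes and are to be read beside the shares over all genes tested, 28.8% and 29.9%. For many of the lists below, counts are therefore also given with the filter applied in both lines, a setting chosen for them after the data were seen. It left 11908 genes, with 27.4% higher in Caki-1 and 29.9% in 769-P (median -0.04). Counts given without it may include genes that entered through 1 line only. The arrays of the lines did not overlap in 8141 genes, of which 7265 were called. In bulk RNA of this kind, fewer cells expressing a gene and less of its RNA per cell cannot be told apart.

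**Figure D1:**
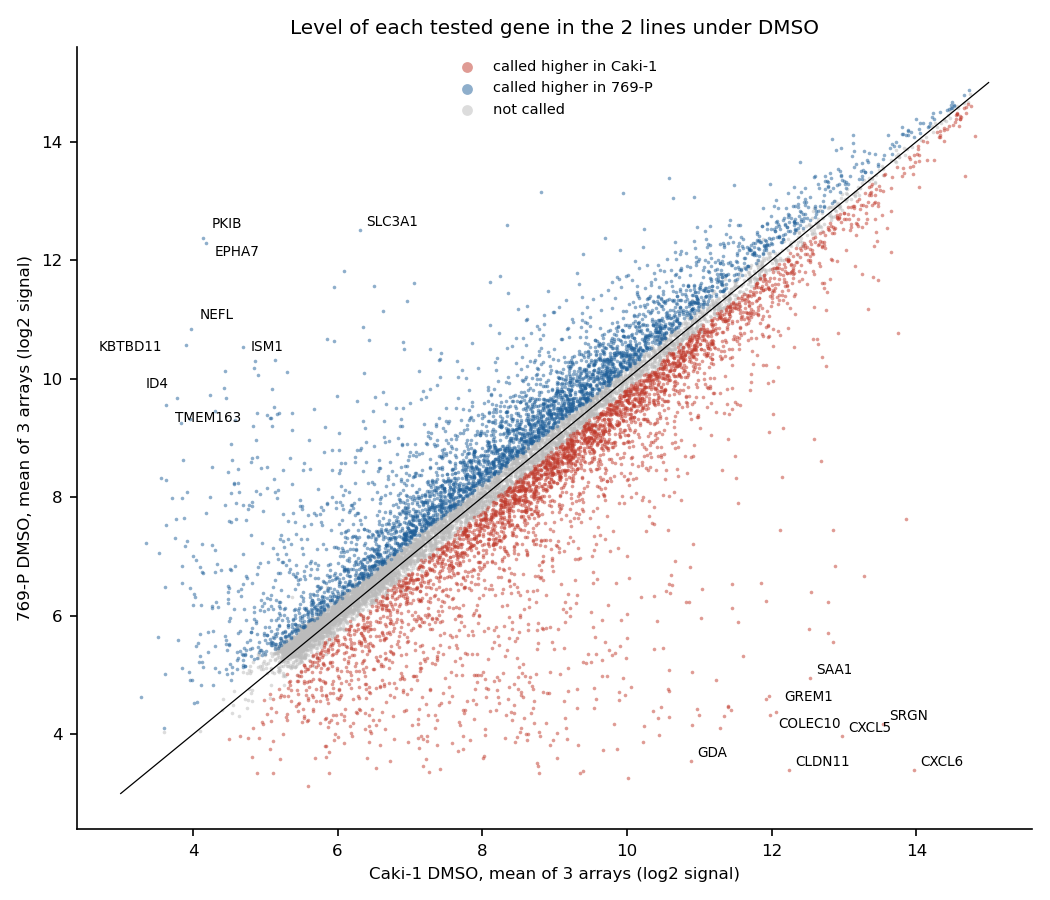
Each point is a tested gene, with its mean log2 signal over the 3 Caki-1 DMSO arrays on the x axis and over the 3 769-P DMSO arrays on the y axis, coloured by its call, and the line marks equal levels. The 1061 genes called at least 2-fold higher in Caki-1 lie below the line and the 834 called at least 2-fold higher in 769-P lie above it, and the 8 largest differences in each direction are named.

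The largest difference of all was in a neutrophil-attracting chemokine. CXCL6, which signals through the receptors CXCR1 and CXCR2, read 13.90, 13.99 and 14.01 in Caki-1, against 3.57, 3.30 and 3.31 in 769-P. The gene was near the top of the signal range in every Caki-1 array and near its bottom in every 769-P array, and the difference was 10.57 ± 0.10 (SE; adjusted p = 2.92e-29, 1524-fold). A second CXCL6 probe set, which was dimmer, showed a difference of -0.12. CXCL5, a related ligand of CXCR2, read 12.95, 12.98 and 13.01 in Caki-1, against 4.09, 3.79 and 4.03 in 769-P, and all 3 of its probe sets gave a difference of 8.64 to 9.01. SRGN, which encodes the proteoglycan serglycin of secretory granules, read 13.55, 13.56 and 13.51 in Caki-1, against 3.91, 4.59 and 4.01 in 769-P, and differed by 9.37 ± 0.21. In these genes 769-P lay below the level of the filter, 5.362, where array background contributes to the signal, so the size of the fold is less certain than its direction.

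The other genes that led on the Caki-1 side were mostly secreted or membrane proteins. CLDN11, a tight junction claudin, differed by 8.84 ± 0.12, although another of its 3 probe sets gave 0.10. GREM1, a secreted antagonist of bone morphogenetic proteins (BMP), differed by 7.68 ± 0.18, and COLEC10, a collectin of innate immunity, by 7.65 ± 0.16. The acute-phase protein SAA1 differed by 7.58 ± 0.18 and the iron-siderophore binder LCN2 by 7.33 ± 0.19. Then came GDA, guanine deaminase, at 7.33 ± 0.31, FGFBP1, a carrier of fibroblast growth factors, at 7.31 ± 0.23, TFPI2, a protease inhibitor, at 7.07 ± 0.09, COXFA4L3 at 7.04 ± 0.21, and the gap junction protein GJA1 at 7.03 ± 0.18. For GDA the probe sets ranged from 1.99 to 7.33, and for GJA1 from -0.10 to 7.03. The remaining 2 of the 15 largest were GSTP1 and HOXB2, described below. A gene could enter the 15 only if no Caki-1 array overlapped a 769-P array, which held for 8141 of the 12862 genes tested. The same rule was used for the 15 of the 769-P side.

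On the 769-P side the leading gene was PKIB, an inhibitor of protein kinase A. PKIB read 3.84, 4.47 and 4.10 in Caki-1, against 12.24, 12.44 and 12.44 in 769-P, a difference of -8.23 ± 0.13 (adjusted p = 4.38e-24). EPHA7, an ephrin receptor tyrosine kinase, read 3.96, 4.28 and 4.30 in Caki-1, against 12.09, 12.47 and 12.30 in 769-P, a difference of -8.11 ± 0.15. Here the Caki-1 arrays were the dim ones, and every probe set of PKIB (-8.42 to -6.89) and EPHA7 (-8.11 to -2.82) was lower in Caki-1. NEFL, a neurofilament subunit usually found in neurons, read 3.82, 4.23 and 3.86 in Caki-1, against 10.73, 10.83 and 10.94 in 769-P. Its difference was -6.86 ± 0.15, and its 3 probe sets gave -8.11 to -6.86. 

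Among the next genes higher in 769-P were transporters, junction proteins and regulators. SLC3A1, a subunit of the renal cystine transporter, differed by -6.20 ± 0.23, ABCC2, an organic anion exporter of apical membranes, by -5.60 ± 0.14, and TMEM163, a zinc transporter, by -5.92 ± 0.13. The desmosomal plaque protein DSP differed by -5.74 ± 0.13 and the tight junction adhesion molecule CXADR by -5.45 ± 0.13. ID4, an inhibitor of helix-loop-helix transcription factors, differed by -5.90 ± 0.15, ISM1, a secreted protein, by -5.85 ± 0.12, and GLDC, the glycine decarboxylase of the mitochondrial glycine cleavage system, by -5.70 ± 0.16. KBTBD11 (-6.67 ± 0.12), the galectin LGALS2 (-5.50 ± 0.18), DOCK8, an exchange factor for CDC42 (-5.42 ± 0.16), and BEND4 (-5.42 ± 0.19) completed the 15. Another probe set gave differences near 0 for KBTBD11 (0.05), SLC3A1 (-0.18) and BEND4 (-0.26), and the probe sets of DOCK8 ran from -5.42 to 0.21. Those of CXADR ran from -5.45 to -0.62, and their mean differed by -2.71.

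**Figure D2:**
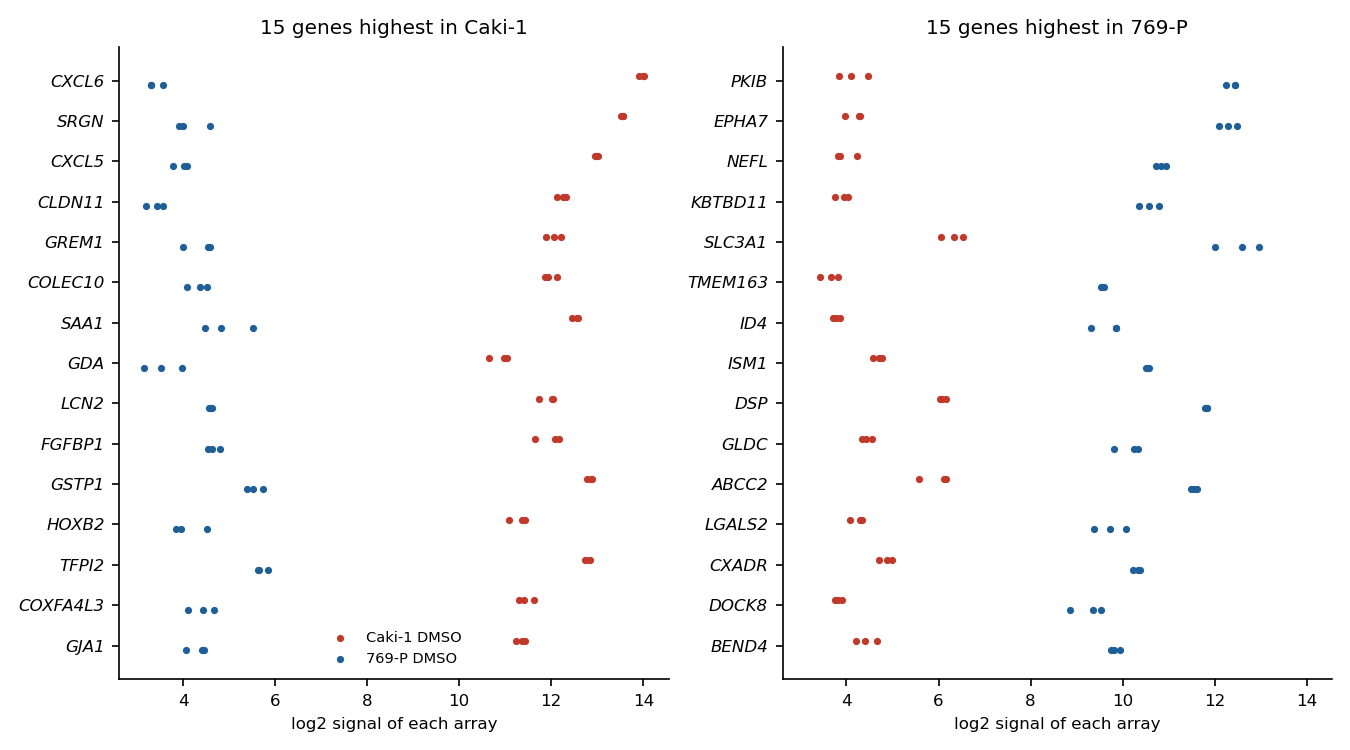
Log2 signal of each of the 6 DMSO arrays on the x axis for the 15 genes with the largest called difference in each direction, with Caki-1 in red and 769-P in blue. The 3 points of a line lie close together beside the gap between the lines, and the widest gap is that of CXCL6, about 14.0 in Caki-1 and 3.4 in 769-P.

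A pair of stretches of neighbouring genes stood out, both chosen after the values were seen. The first was the chemokine cluster of chromosome 4 (GRCh38.p14, chr4:73740569-74388749). Over all genes tested, 28.8% were called higher in Caki-1. In this stretch 8 of 10 tested genes were called higher in Caki-1 and none in 769-P, with a median difference of 4.80. Besides CXCL6 and CXCL5 these were CXCL8 (6.23 ± 0.30), CXCL1 (6.60 ± 0.17), CXCL2 (5.29 ± 0.19), CXCL3 (4.32 ± 0.30), PF4V1 (1.17 ± 0.16) and the EGF receptor ligand EREG (1.80 ± 0.13). CXCL8, the interleukin-8 gene, read 13.69, 13.91 and 13.97 in Caki-1, against 8.43, 7.51 and 6.96 in 769-P. Its 769-P arrays thus spread by more than a unit, and the groups did not overlap. PF4, which lies inside the same stretch, was at 5.50 in Caki-1 and 5.48 in 769-P and was not called, and neither was the enzyme gene MTHFD2L. CXCL1, CXCL2 and CXCL3 are close in sequence, and how far their probes cross-react was not tested. The 769-P means of CXCL6 (3.39), CXCL5 (3.97) and CXCL3 (4.35) lay below the level of the filter, 5.362. Genes this dim in 769-P could enter the tests through Caki-1 alone, which favours a call on that side.

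The other stretch was the HOXB cluster of chromosome 17 (chr17:48528526-48728750). In it 8 of 10 tested genes were called higher in Caki-1, against 28.8% over all genes tested, with a median of 4.04. HOX genes encode homeodomain transcription factors that set position along the body axis, and adult tissues and the lines made from them keep a stable HOX code. HOXB2 read 11.09, 11.42 and 11.37 in Caki-1, against 4.52, 3.84 and 3.95 in 769-P, and HOXB3 read 9.93, 9.88 and 9.80 in Caki-1, against 4.22, 3.40 and 3.61 in 769-P. Along the cluster the difference was 7.19 ± 0.18 for HOXB2, 6.12 ± 0.18 for HOXB3, 1.82 ± 0.11 for HOXB4, 4.29 ± 0.21 for HOXB5, 3.25 ± 0.15 for HOXB6, 4.67 ± 0.11 for HOXB7, 3.94 ± 0.12 for HOXB8 and 4.13 ± 0.18 for HOXB9. HOXB13, which lies apart at the end of the cluster, read 6.51 in Caki-1 and 6.47 in 769-P and was not called, nor was the antisense transcript HOXB-AS3. HOXB4, the smallest called difference of the cluster, averaged 8.95 in Caki-1, against 7.13 in 769-P. The 769-P means of HOXB2 (4.10), HOXB3 (3.74), HOXB5 (5.21), HOXB7 (4.98) and HOXB8 (4.62) lay below the level of the filter, 5.362. These genes too could enter the tests through Caki-1 alone.

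The HOX list as a whole leaned the same way. Of 23 tested HOX genes, 19 were higher in Caki-1, none was higher in 769-P and 4 were not called, with a median difference of 1.34 against -0.04 over all genes tested. With the filter in both lines 12 HOX genes were left, of which 8 were higher in Caki-1 and none in 769-P (median 0.58). By cluster, 8 of 9 HOXB genes were higher in Caki-1 (median 4.13), 6 of 8 HOXC genes (median 0.83), 4 of 5 HOXD genes (median 0.61) and the 1 tested HOXA gene. HOXC8 differed by 4.46, HOXC6 by 2.77 ± 0.12 and HOXC10 by 1.00 ± 0.19. The probe sets of HOXC6 ran from 0.19 to 3.16.

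**Figure D3:**
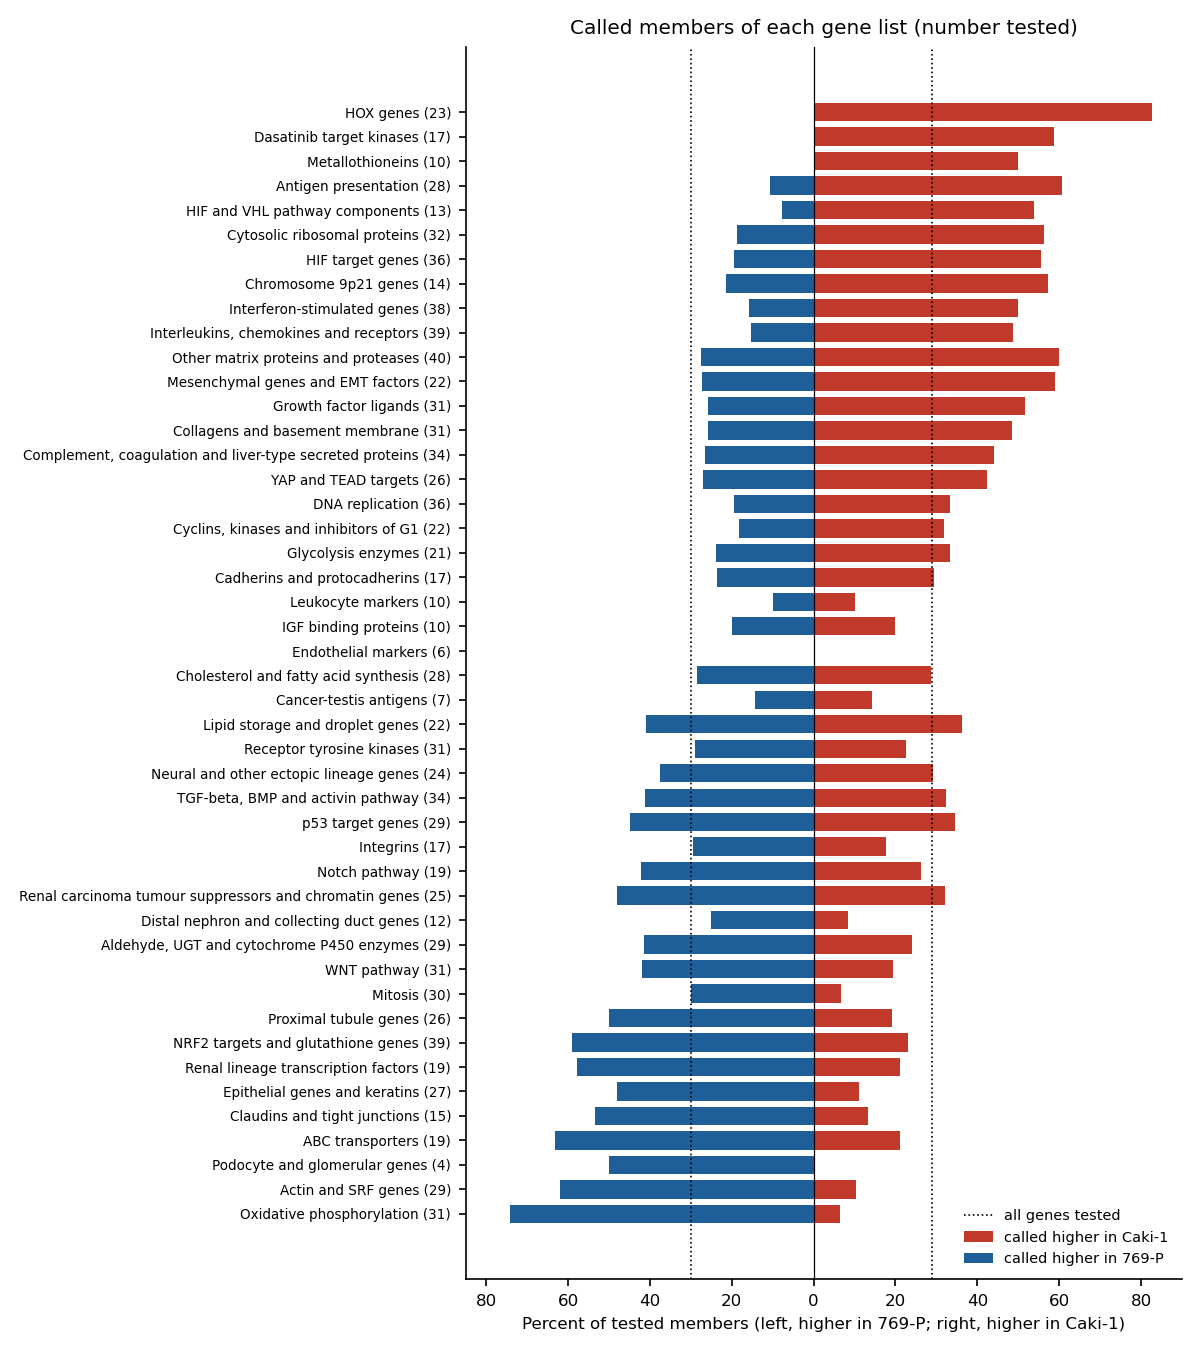
For each of 46 gene lists, the share of tested members called higher in Caki-1 (red, to the right) and higher in 769-P (blue, to the left), in percent, with the number tested in brackets. Dotted lines mark the shares over all genes tested, 28.8% and 29.9%, and the HOX genes and the oxidative phosphorylation genes lie at the ends.

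Kidney lineage factors were split, with more of them higher in 769-P. Of 19 tested renal lineage transcription factors, 4 were higher in Caki-1 and 11 in 769-P, with a median of -0.38. With the filter in both lines the counts were 3 and 10 of 16 (median -0.49). WT1, which is needed for nephron progenitors and podocytes, read 3.64, 3.52 and 3.52 in Caki-1, against 8.24, 8.37 and 8.35 in 769-P (difference -4.76 ± 0.14). PPARGC1A, a coactivator of mitochondrial genes that is high in tubule cells, read 5.34, 4.87 and 4.85 in Caki-1, against 9.29, 9.43 and 9.45 in 769-P (-4.37 ± 0.15). For both genes the lines were far apart in every array. The nephron patterning factor IRX3 (-2.65 ± 0.13), the nuclear receptor HNF4G (-2.18 ± 0.18), MECOM (-2.02 ± 0.16) and LHX1, a factor of the early nephron (-1.64 ± 0.10), were also higher in 769-P, as was PAX2 (-0.71 ± 0.12). On the Caki-1 side stood HOXB7 (4.67 ± 0.11), TFAP2A (2.79 ± 0.13), GATA3 of the collecting duct lineage (1.02) and, by a small margin, PAX8 (0.21 ± 0.07, adjusted p = 0.00947). The PAX8 call was lost with the 6 DMSO arrays fitted alone (adjusted p = 0.056), with the mean of its probe sets (adjusted p = 0.143) and without Caki-1 replicate 1 (difference 0.14, adjusted p = 0.0918). Of the 30 genes to be described by name whatever their values, 26 had a probe set and 25 were tested. The collagen receptor DDR2 did not pass the filter, at 4.55 in Caki-1 and 4.75 in 769-P, and the remaining 4 were not analysed here.

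Proximal tubule genes differed in both directions. Of 26 tested, 5 were higher in Caki-1 and 13 in 769-P (median -0.23), and with the filter in both lines 5 and 8 of 21 (median -0.06). The transporter subunit SLC3A1 read 6.54, 6.33 and 6.06 in Caki-1, against 12.00, 12.58 and 12.96 in 769-P. The phosphate and organic anion transporters SLC17A3 (-4.56 ± 0.16) and SLC17A1 (-4.27 ± 0.19) and SLC7A9, the partner of SLC3A1 in cystine transport (-2.35 ± 0.15), lay on the same side, while the transporters SLC22A6, SLC5A2, SLC13A1 and SLC13A3 did not pass the filter in either line. Also higher in 769-P were the injury marker HAVCR1 (-1.84 ± 0.16) and MIOX, the inositol oxygenase of the tubule (-1.30 ± 0.13). Surface proteins made up most of the members higher in Caki-1, with VCAM1, an adhesion molecule of scattered and injured tubule cells, at 13.18, 12.67 and 12.68 in Caki-1, against 7.41, 7.53 and 7.40 in 769-P (5.40 ± 0.17). The peptidases ANPEP (2.98 ± 0.09) and DPP4 (1.17 ± 0.17) and the cadherin CDH6 (2.11 ± 0.13) were higher in Caki-1 as well. Of 12 tested distal nephron and collecting duct genes, 1 was higher in Caki-1 and 3 in 769-P (1 and 2 of 9 with the filter in both lines). AQP3, a water and glycerol channel (-2.88 ± 0.25) and CLDN16 (-1.29 ± 0.20) were on the 769-P side. Of 4 tested podocyte and glomerular genes, WT1 and the sialomucin PODXL (-3.36 ± 0.25) were higher in 769-P. With the filter in both lines only 2 of this list were left, and neither was called (median -0.11).

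The HIF system differed at the level of its own transcripts. Of 13 tested genes of the HIF and VHL pathway, 7 were higher in Caki-1 and 1 in 769-P (median 0.21). HIF1A, the HIF-1 alpha subunit (chr14:61695513-61748258), read 12.73, 12.89 and 13.03 in Caki-1, against 6.75, 6.93 and 6.86 in 769-P. Each Caki-1 array was about 6 units above each 769-P array (6.04 ± 0.14, adjusted p = 3.16e-21, 65.6-fold), and all 8 HIF1A probe sets were higher in Caki-1, by 3.31 to 6.30. EPAS1, which encodes the HIF-2 alpha subunit, read 9.91, 10.24 and 10.41 in Caki-1, against 6.26, 6.08 and 6.63 in 769-P (3.87 ± 0.18), while its dimmer probe set gave -0.10. VHL itself read 6.97, 7.56 and 7.27 in Caki-1, against 5.45, 6.12 and 6.00 in 769-P (1.41 ± 0.18), and its other probe set gave 3.61. The array reads RNA level and not the state of the VHL protein. CUL2, the cullin of the VHL ligase, was higher in Caki-1 (1.26 ± 0.06) and its RING subunit RBX1 was higher in 769-P (-0.70 ± 0.06). CITED2, a HIF-induced competitor for the coactivator p300, was higher in Caki-1 (1.70 ± 0.08), and the dimerisation partner ARNT differed by 0.41.

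HIF target genes leaned to Caki-1. Of 36 tested, 20 were higher in Caki-1 and 7 in 769-P, with a median of 0.42. With the filter in both lines the counts were 18 and 7 of 34 (median 0.36). STC2, a secreted glycoprotein, read 11, 11.05 and 11.03 in Caki-1, against 6.29, 5.56 and 6.05 in 769-P (5.06 ± 0.24). LOX, the collagen cross-linking oxidase, read 8.15, 8.27 and 8.29 in Caki-1, against 5.30, 5.33 and 5.87 in 769-P (2.74 ± 0.23), with 1 of its 6 probe sets at 0.01. Neither gene overlapped between the lines. The angiogenic factor VEGFA was higher in Caki-1 by 1.45 ± 0.12, the aldolase ALDOC by 1.35 ± 0.15 and the lipid droplet protein PLIN2 by 1.29 ± 0.13. On the 769-P side stood the enolase ENO2 (-1.38 ± 0.14) and cyclin D1, CCND1 (-0.69 ± 0.17), which is a HIF-2 target in renal carcinoma. The glucose transporter SLC2A1 and NDRG1 were not called. Of 21 glycolysis enzymes, 7 were higher in Caki-1 and 5 in 769-P (median 0.05), so that this overlapping list was close to balance; PKM was higher in 769-P (-0.90) and the hexokinases HK1 (0.85) and HK2 (0.65) in Caki-1.

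**Figure D4:**
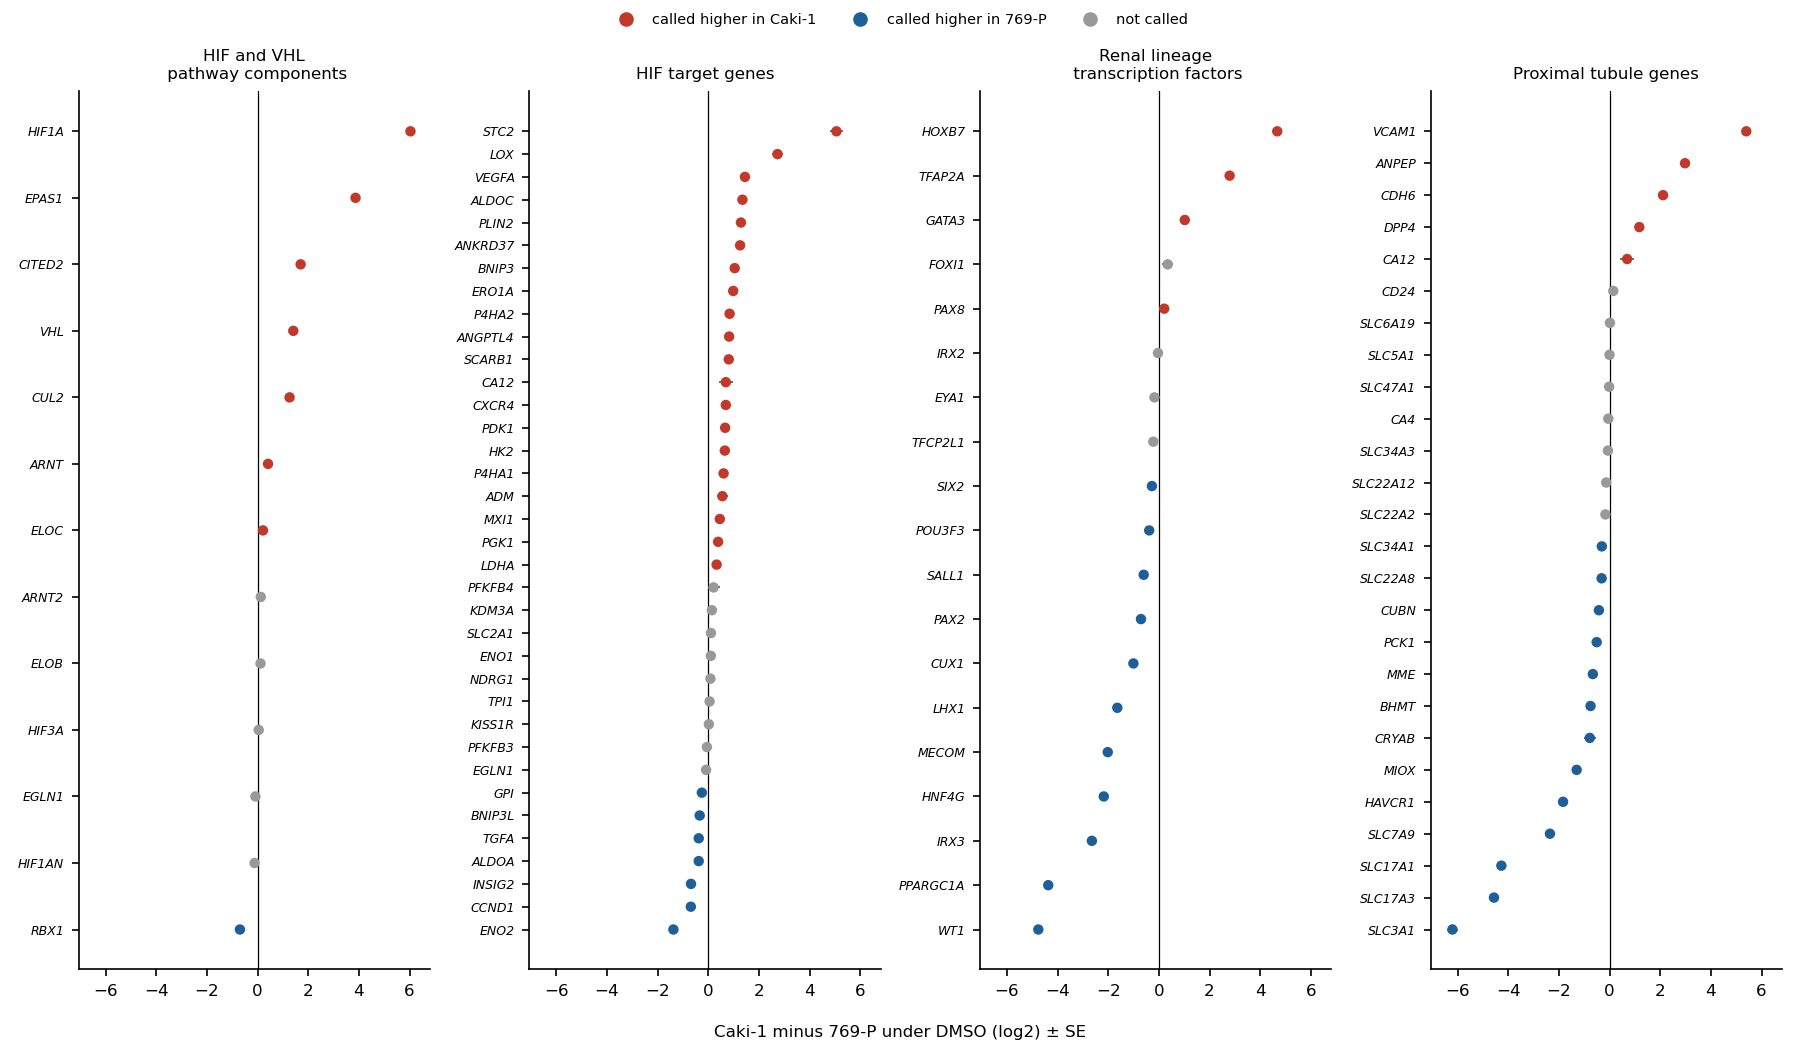
Caki-1 minus 769-P under DMSO in log2 units on the x axis, with bars of 1 SE that are mostly shorter than the points, for every tested gene of the lists of HIF and VHL pathway components, HIF target genes, renal lineage transcription factors and proximal tubule genes. HIF1A (6.04) and VCAM1 (5.40) lead on the Caki-1 side, and WT1 (-4.76) and SLC3A1 (-6.20) on the 769-P side.

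HIF binds the core letters ACGTG or GCGTG. Only promoters of called HIF targets that hold these letters were open to printing, so a match in each was set by this choice. Promoters of the leading pair are shown. These are RefSeq sequences of GRCh38.p14, 250 bases before to 50 after the start of the gene, 5′ to 3′ on the strand of the gene, with every match on either strand in capitals (CACGT and CACGC are the matches of the other strand). STC2 lies on the minus strand at chr5:173328365-173328664 and holds 3 matches, of which 2 overlap. LOX lies on the minus strand at chr5:122078210-122078509 and holds 4.
STC2: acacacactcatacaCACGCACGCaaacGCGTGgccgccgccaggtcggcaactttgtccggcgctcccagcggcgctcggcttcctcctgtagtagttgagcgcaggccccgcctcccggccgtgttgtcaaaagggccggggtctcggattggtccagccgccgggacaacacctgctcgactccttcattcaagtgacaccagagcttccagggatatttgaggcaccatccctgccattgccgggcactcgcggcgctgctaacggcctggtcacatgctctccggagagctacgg
LOX: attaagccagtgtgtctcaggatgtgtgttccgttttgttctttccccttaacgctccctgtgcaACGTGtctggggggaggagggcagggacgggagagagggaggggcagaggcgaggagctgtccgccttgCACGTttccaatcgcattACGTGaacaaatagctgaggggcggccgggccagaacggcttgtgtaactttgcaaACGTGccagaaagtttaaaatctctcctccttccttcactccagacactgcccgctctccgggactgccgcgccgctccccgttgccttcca
Of 33 HIF target genes with a promoter in the table, 27 (81.8%) held such letters, and so did 19 of the 23 called ones (82.6%). The letters are short, and 13213 of all 27305 promoters of the table (48.4%) held them. A match of letters is a description of the sequence and not of binding.

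Epithelial genes were more often higher in 769-P. Of 27 tested epithelial genes and keratins, 3 were higher in Caki-1 and 13 in 769-P (median -0.20), and with the filter in both lines 1 and 12 of 24. The adhesion molecule EPCAM read 5.02, 4.95 and 5.08 in Caki-1, against 8.30, 8.45 and 8.79 in 769-P (-3.49 ± 0.13). The desmosomal gene DSP read 6.04, 6.07 and 6.16 in Caki-1, against 11.80, 11.84 and 11.84 in 769-P. In both genes the 769-P arrays were the high ones, without overlap. The protease inhibitor SPINT2 (-4.25 ± 0.09), MAL2 of apical transport (-2.28 ± 0.17) and the keratins KRT80 (-2.14 ± 0.15) and KRT7 (-1.75 ± 0.11) lay on the same side. KRT8 (-0.28 ± 0.10, adjusted p = 0.0172) and KRT18 (-0.24 ± 0.07) differed little, and KRT19 was not called (-0.08). Higher in Caki-1 were the epithelial transcription factors EHF (2.71 ± 0.31) and ELF3 (1.30 ± 0.11) and E-cadherin, CDH1. CDH1 was dim, at 5.02, 5.73 and 5.79 in Caki-1, against 4.23, 4.31 and 4.07 in 769-P (1.31 ± 0.41, adjusted p = 0.0085), and its second probe set gave -0.14.

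Tight junction genes gave a similar picture apart from CLDN11. Of 15 tested, 2 were higher in Caki-1 and 8 in 769-P (median -0.28), and with the filter in both lines none and 7 of 11. CLDN2, a pore-forming claudin of the proximal tubule, differed by -3.59 ± 0.21, the tricellular junction protein MARVELD2 by -3.56 ± 0.11, occludin, OCLN, by -3.21 ± 0.14 and CLDN4 by -2.34 ± 0.16. CLDN11 read 12.12, 12.26 and 12.32 in Caki-1, against 3.44, 3.56 and 3.19 in 769-P. Cadherins were close to balance, with 5 of 17 higher in Caki-1 and 4 in 769-P, and 3 and 4 of 13 with the filter in both lines. N-cadherin, CDH2, was bright in both lines, at 11.15, 11.08 and 11.19 in Caki-1, against 12.67, 12.48 and 12.58 in 769-P (-1.43 ± 0.06).

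Mesenchymal genes were called in both directions. Of 22 tested, 13 were higher in Caki-1 and 6 in 769-P (median 0.82), but with the filter in both lines 6 and 5 of 14 (median 0.06), so the larger count on the Caki-1 side rested on genes that were dim in 1 line. SPARC, a matrix glycoprotein, read 12.76, 12.80 and 12.78 in Caki-1, against 6.43, 6.04 and 6.22 in 769-P (6.55 ± 0.14). The transcription factors TWIST1 (4.63 ± 0.14) and ZEB2 (3.35 ± 0.17) were also higher in Caki-1, with 769-P below the level of the filter for both. The smooth muscle actin gene ACTA2 ran the other way, at 6.40, 6.49 and 6.62 in Caki-1, against 11.71, 11.55 and 11.45 in 769-P (-5.07 ± 0.14), and so did CDH2 and, by 0.14 in size, VIM. Actin and serum response factor (SRF) genes as a list were mostly higher in 769-P, with 3 of 29 higher in Caki-1 and 18 in 769-P (median -0.30). Among these were the calponins CNN3 (-1.70) and CNN2 (-1.46) and the non-muscle myosin MYH9 (-1.19). TGFB1I1, a focal adhesion adaptor, was the largest exception at 3.11. Of 26 YAP and TEAD targets, 11 were higher in Caki-1 and 7 in 769-P (8 and 7 of 23 with the filter in both lines), and the pair most used as readouts divided: CCN2 was higher in Caki-1 (3.93 ± 0.23) and CCN1 in 769-P (-1.01 ± 0.27).

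Matrix genes were among those with the widest gaps. Of 31 tested collagens and basement membrane genes, 15 were higher in Caki-1 and 8 in 769-P (median 0.27), and of 40 other matrix proteins and proteases, 24 and 11 (median 0.97). With the filter in both lines both lists were close to balance, with 8 collagen and basement membrane genes higher in each line out of 23 (median 0.07), and 13 against 11 out of 28 other matrix genes (median 0.09). The fibrillin gene FBN1 read 12.54, 12.48 and 12.53 in Caki-1, against 5.60, 5.96 and 5.78 in 769-P (6.73 ± 0.14). The collagen COL5A2 read 11.53, 11.63 and 11.66 in Caki-1, against 5.67, 5.26 and 5.04 in 769-P (6.28 ± 0.12). COL6A3 (6.15 ± 0.13), the basement membrane linker NID2 (5.26 ± 0.20) and the protease MMP7 (5.85 ± 0.23) were also far higher in Caki-1. Of these, COL5A2, COL6A3 and MMP7 each had a probe set with a difference between -0.13 and 0.31. Members higher in 769-P included the laminin chain LAMA5 (-1.88 ± 0.18), the collagen COL18A1 (-1.76 ± 0.11), the proteoglycan SPOCK1 (-4.35 ± 0.33) and the collagenase MMP1 (-3.18 ± 0.40). Integrins differed less. Of 17 tested, 3 were higher in Caki-1 and 5 in 769-P, against 28.8% and 29.9% over all genes tested. ITGA4 differed by 3.77 ± 0.18, ITGA2 by -2.06 ± 0.19 and ITGAV by -1.47 ± 0.10.

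Inflammatory genes were called in both directions. Of 39 tested interleukins, chemokines and their receptors, 19 were higher in Caki-1 and 6 in 769-P (median 0.40). With the filter in both lines only 23 were left, of which 9 were higher in Caki-1 and 5 in 769-P (median 0.05). IL6, the ligand of the gp130 receptor complex, read 11.26, 11.27 and 11.16 in Caki-1, against 4.78, 5.36 and 4.63 in 769-P (6.31 ± 0.14), while another probe set gave 1.09. The groups were far apart for IL6. IL32, a proinflammatory cytokine, was higher in 769-P (-3.73 ± 0.14), as was the receptor subunit IL20RB (-3.01 ± 0.16). Of 38 interferon-stimulated genes, 19 were higher in Caki-1 and 6 in 769-P (median 0.31; 16 and 6 of 35 with the filter in both lines), led by the ISG15 ligase HERC5 (5.10 ± 0.21) and with the guanylate-binding protein GBP1 on the other side (-1.79 ± 0.18).

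Antigen presentation genes had 17 of 28 tested members higher in Caki-1 and 3 in 769-P (median 0.41). With the filter in both lines the counts were 15 and 3 of 26 (median 0.34). The stress ligand MICB, seen by the natural killer receptor NKG2D, differed by 4.11 ± 0.13. The class I genes HLA-F (2.26 ± 0.12), HLA-C (2.05 ± 0.10) and HLA-B (1.90 ± 0.08) were higher in Caki-1, and the peptide-trimming peptidase ERAP2 was higher in 769-P (-2.37 ± 0.12). HLA genes vary between people and are close in sequence, and probe sets disagreed: those of HLA-C ran from -5.43 to 2.05, those of HLA-F from -0.52 to 2.26 and those of HLA-B from 0.04 to 1.90. With the mean of its probe sets the HLA-C difference turned to -0.61.

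Complement, coagulation and liver-type secreted proteins divided, with 15 of 34 tested higher in Caki-1 and 9 in 769-P (median 0.12). With the filter in both lines the counts were 9 and 6 of 25 (median 0.10). The complement protein C3 read 11.54, 11.52 and 11.53 in Caki-1, against 5.76, 5.62 and 6.30 in 769-P (5.64 ± 0.18), which put Caki-1 above 769-P in every array, and SAA1 and TFPI2 were named above. SERPINA1, the inhibitor of neutrophil elastase, was higher in 769-P (-3.03 ± 0.15). The fibrinogen genes, which lie next to each other on chromosome 4, went apart: FGB read 9.12, 8.64 and 8.64 in Caki-1, against 10.81, 10.75 and 10.45 in 769-P (-1.87 ± 0.22), and FGA read 5.75, 5.70 and 5.92 in Caki-1, against 5.02, 5.01 and 4.69 in 769-P (0.89 ± 0.17). FGA was dim in both lines, and its 5 probe sets gave -0.18 to 1.40.

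Fibrinogen genes are classical targets of hepatocyte nuclear factor 1 (HNF1), a factor of liver and proximal tubule. Its site contains the letters GTTAAT, or ATTAAC on the other strand. Promoters were printed only for called genes of the list that hold these letters, so a match in each was set by this choice. They are from the same RefSeq table and window, with the match in capitals. FGB lies on the plus strand at chr4:154562730-154563029 and FGA on the minus strand at chr4:154590693-154590992, and each holds 1 match.
FGB: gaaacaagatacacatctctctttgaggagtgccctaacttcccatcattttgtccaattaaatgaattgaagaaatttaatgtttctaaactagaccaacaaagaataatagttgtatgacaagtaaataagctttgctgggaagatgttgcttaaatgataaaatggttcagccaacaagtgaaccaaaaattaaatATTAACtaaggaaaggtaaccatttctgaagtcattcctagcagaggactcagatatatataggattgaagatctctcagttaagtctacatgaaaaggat
FGA: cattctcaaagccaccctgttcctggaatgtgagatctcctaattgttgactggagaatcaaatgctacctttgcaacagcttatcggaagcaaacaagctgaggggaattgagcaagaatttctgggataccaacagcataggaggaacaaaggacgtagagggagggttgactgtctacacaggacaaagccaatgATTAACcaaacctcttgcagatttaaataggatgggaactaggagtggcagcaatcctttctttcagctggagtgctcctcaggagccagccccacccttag
Of 38 genes of this list with a promoter in the table, 8 (21.1%) held these letters, among them 2 of 18 called ones (11.1%), against 1882 of all 27305 promoters (6.89%). The counts of called members are too small to compare.

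Receptor tyrosine kinases were called in both directions, in neither more often than all genes tested. Of 31 tested, 7 were higher in Caki-1 and 9 in 769-P, against 28.8% and 29.9% over all genes tested. With the filter in both lines the counts were 6 and 8 of 28. Besides EPHA7, the fibroblast growth factor receptor FGFR3 (-4.25 ± 0.16) and the insulin receptor INSR (-2.36 ± 0.19) were higher in 769-P. The efferocytosis receptor MERTK (3.03 ± 0.16) and the collagen receptor DDR1 (1.51 ± 0.16) were higher in Caki-1. The receptors most studied in renal carcinoma differed little: MET read 12.53, 12.39 and 12.54 in Caki-1, against 12.79, 12.71 and 12.64 in 769-P (-0.22 ± 0.05), EGFR differed by -0.51 ± 0.09 and AXL by -0.56 ± 0.06. The MET call was lost with the mean of its 6 probe sets (adjusted p = 0.0894).

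Of 17 tested kinases that dasatinib binds, 10 were higher in Caki-1, none was higher in 769-P and 7 were not called, with a median of 0.28. The sizes were small. DDR1 read 9.33, 9.79 and 9.82 in Caki-1, against 7.85, 8.37 and 8.18 in 769-P, and its probe sets ran from -0.08 to 4.80. FRK differed by 0.99 ± 0.16, LYN by 0.76 ± 0.15 and EPHA2 by 0.72 ± 0.13. SRC read 8.20, 8.15 and 8.23 in Caki-1, against 7.77, 7.79 and 8.17 in 769-P (0.28 ± 0.12, adjusted p = 0.0491). This call sat at the threshold and was lost when any array but 769-P replicate 3 was left out, under both other scalings, without the intensity trend (adjusted p = 0.0520), without the filter (adjusted p = 0.0629) and with a minimum of 2-fold. ABL1 was not called (0.08 ± 0.08, adjusted p = 0.419).

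Of 31 tested growth factor ligands, 16 were higher in Caki-1 and 8 in 769-P (median 0.28), but with the filter in both lines 10 and 8 of 25 (median -0.02). HGF, the ligand of MET, read 9.66, 9.66 and 9.84 in Caki-1, against 4.70, 5.05 and 5.19 in 769-P (4.74 ± 0.19), though its 4 probe sets ran from -0.08 to 4.74. The neurotrophin BDNF (4.40 ± 0.16) and the lymphangiogenic factor VEGFC (4.22 ± 0.16) were higher in Caki-1. PROS1, which is a ligand of MERTK and AXL, was higher in 769-P (-4.82 ± 0.15), as was PDGFB (-1.93 ± 0.16). The ligand HGF was thus higher in Caki-1, where its receptor MET was slightly lower, and PROS1 was higher in 769-P, as was its receptor AXL, while its receptor MERTK was lower there.

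Developmental pathways were mixed. In the TGF-beta, BMP and activin pathway, 11 of 34 tested genes were higher in Caki-1 and 14 in 769-P (median -0.10). GREM1 and FSTL1 (3.80 ± 0.08), both secreted, were higher in Caki-1, and ID4, a BMP target, and ACVR1, a BMP type I receptor (-2.15 ± 0.09), were higher in 769-P. In the WNT pathway, 6 of 31 were higher in Caki-1 and 13 in 769-P (median -0.21), and 4 and 12 of 24 with the filter in both lines. The secreted WNT antagonists SFRP1 (4.53 ± 0.17) and DKK1 (3.13 ± 0.16) were higher in Caki-1, and LEF1, a transcription factor of the pathway, was higher in 769-P (-3.09 ± 0.18). In the Notch pathway, 5 of 19 were higher in Caki-1 and 8 in 769-P, with the ligand JAG1 at -1.79 ± 0.20 and DLL3 at 1.52 ± 0.12. Of 10 insulin-like growth factor genes, 2 were higher in each line.

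Detoxification genes were more often higher in 769-P. Of 39 tested NRF2 targets and glutathione genes, 9 were higher in Caki-1 and 23 in 769-P (median -0.34). With the filter in both lines the counts were 9 and 22 of 38. NRF2 is the transcription factor of the oxidative stress response. ABCC2, the aldo-keto reductase AKR1C2 (-2.53 ± 0.29) and heme oxygenase HMOX1 (-2.50 ± 0.20) were higher in 769-P. The glutathione transferase GSTP1 ran the other way, at 12.89, 12.86 and 12.78 in Caki-1, against 5.52, 5.75 and 5.38 in 769-P (7.29 ± 0.14), as did GSTA4 (3.72 ± 0.19). GSTP1 was among the 15 largest differences, and its second probe set gave 0.33. AKR1C genes are close in sequence, and the probe sets of AKR1C2 ran from -2.53 to 0.00.

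Of 19 tested ABC transporters, 4 were higher in Caki-1 and 12 in 769-P (median -0.46). With the filter in both lines the counts were 2 and 10 of 15 (median -0.46). ABCC9, a subunit of potassium channels, read 4.33, 4.45 and 4.60 in Caki-1, against 9.51, 9.43 and 10.09 in 769-P (-5.22 ± 0.20), and the lipid transporter ABCA3 differed by -3.84 ± 0.17. ABCG2, a drug exporter, was higher in Caki-1 (2.40 ± 0.17). Of 29 aldehyde dehydrogenase, UGT and cytochrome P450 enzymes, 7 were higher in Caki-1 and 12 in 769-P. CYP1B1 read 10.95, 10.11 and 10.06 in Caki-1, against 5.77, 5.98 and 7.27 in 769-P (4.03 ± 0.34). Caki-1 replicate 1 and 769-P replicate 3 stood above the other arrays of their lines, and the lines did not overlap. Of 10 metallothionein genes, 5 were higher in Caki-1 and none in 769-P (median 0.34), with MT1X at 1.80 and MT2A at 0.71. Metallothionein 1 genes are near-identical, so their probe sets may share signal.

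Genes of oxidative phosphorylation were the list with the largest share higher in 769-P. Of 31 tested, 2 were higher in Caki-1 and 23 in 769-P, and the differences were small, from -1.03 to 0.19 (median -0.36). The complex I subunit NDUFS1 differed by -1.03, the complex IV subunit COX5B by -0.89 and the ATP synthase subunit ATP5MC3 by -0.86. PPARGC1A, which activates such genes, was 4.37 lower in Caki-1, as given above, and a link to this list was not tested. Cytosolic ribosomal protein genes had 18 of 32 higher in Caki-1 and 6 in 769-P, with differences of -0.32 to 0.55 (median 0.09). Cholesterol and fatty acid synthesis was balanced, with 8 of 28 higher in each line, and ELOVL6, an elongase, the largest at 3.19. Among 22 lipid storage genes, 8 were higher in Caki-1 and 9 in 769-P. G0S2, an inhibitor of the lipase ATGL, read 10.62, 10.52 and 10.59 in Caki-1, against 4.11, 4.08 and 4.68 in 769-P (6.29 ± 0.17), with another probe set at 0.03.

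Replication and mitosis genes differed little in size, while some genes of G1 differed more. Of 36 DNA replication genes, 12 were higher in Caki-1 and 7 in 769-P (median 0.07), and none of them reached 2-fold. Of 30 mitosis genes, 2 were higher in Caki-1 and 9 in 769-P (median -0.20), led by ANLN at -1.10. The shares over all genes tested were 28.8% and 29.9%. Among 22 cyclins, kinases and inhibitors of G1, 7 were higher in Caki-1 and 4 in 769-P, with differences from -3.87 (CDKN2B, described below) to 1.63. Cyclin D3, CCND3, was higher in Caki-1 (1.63 ± 0.12), and CDK6, its kinase partner, read 10.21, 10.18 and 10.30 in Caki-1, against 12.63, 12.48 and 12.48 in 769-P (-2.30 ± 0.08). The transcription factor MYC differed by 0.77 ± 0.15. Of 29 p53 target genes, 10 were higher in Caki-1 and 13 in 769-P (median -0.13), with TP53INP1 at -2.61 ± 0.16, while the p53 targets CDKN1A and MDM2 were not called.

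Chromosome 9p21, which is often deleted in renal carcinoma, showed neighbouring genes that went opposite ways. Of 14 tested genes of the region, 8 were higher in Caki-1 and 3 in 769-P (median 0.50). With the filter in both lines the counts were 6 and 2 of 11 (median 0.43). CDKN2B, an inhibitor of CDK4 and CDK6, read 3.73, 3.85 and 3.70 in Caki-1, against 7.55, 7.40 and 7.93 in 769-P (-3.87 ± 0.20). CDKN2A beside it was dim in both lines, at 6.02, 6.05 and 6.19 in Caki-1, against 5.99, 6.20 and 6.32 in 769-P, and was not called (-0.08 ± 0.13). MTAP, on the other side of CDKN2A, read 9.78, 10.01 and 10 in Caki-1, against 8.11, 7.94 and 8.03 in 769-P (1.91 ± 0.10). HACD4 (5.25 ± 0.16), DMRTA1 (3.59 ± 0.14) and IFT74 (3.32 ± 0.14) were higher in Caki-1 too. A probe set gave 0.00 for MTAP, 0.46 for IFT74 and -0.06 for CDKN2B, and no DNA copy number was measured here. Of 25 tumour suppressor and chromatin genes of renal carcinoma, 8 were higher in Caki-1 and 12 in 769-P, with VHL (1.41) and RB1 (-0.94) at the ends.

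Some genes of other lineages were on in either line. Of 24 tested neural and other ectopic lineage genes, 7 were higher in Caki-1 and 9 in 769-P, against 28.8% and 29.9% over all genes tested. With the filter in both lines the counts were 4 and 6 of 18. SOX17, an endoderm and endothelial factor, read 8.36, 8.63 and 8.81 in Caki-1, against 4.01, 4.16 and 3.84 in 769-P (4.60 ± 0.16), and the neuronal hydrolase UCHL1 was higher in Caki-1 (2.98 ± 0.13) but bright in both lines. NEFL was the counterpart in 769-P. Of 7 tested cancer-testis antigens, PRAME was higher in Caki-1, at 9.45, 9.27 and 9.34, against 3.34, 3.27 and 3.45 in 769-P (6.00 ± 0.10), and the helicase DDX43 was higher in 769-P (-3.58 ± 0.21). With the filter in both lines 4 of the 7 were left, and none was called. Another 22 cancer-testis genes with a probe set did not pass the filter in either line.

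By chromosome, the balance of calls was uneven. On chromosome 13, 15% of 207 tested genes were higher in Caki-1 and 60.4% in 769-P (median -0.37). On chromosome 18 the shares were 24.4% and 51.1% of 180 genes (median -0.26), on chromosome 7 they were 21.9% and 49.7% of 576 genes (median -0.23), and on chromosome 22 they were 9.48% and 44.3% of 327 genes (median -0.19). On the other side, 43.6% of 404 genes of chromosome X were higher in Caki-1 and 19.6% in 769-P (median 0.13), and 43% of 477 genes of chromosome 4 against 24.3% (median 0.12). In windows of 10 Mb with at least 20 tested genes, the highest median was 0.60, on chromosome 17 between 60 and 70 Mb, where 38 of 58 genes were higher in Caki-1 and 3 were higher in 769-P. The lowest was -0.72 on chromosome 20 between 10 and 20 Mb, where 2 of 28 genes were higher in Caki-1 and 20 in 769-P. Copy number is not given in the sources used here, and its part in these shares was not tested.

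The number of CG pairs in promoters was counted as a description of the most different genes. The median was 24 per promoter for 96 genes at least 16-fold higher in Caki-1 and 22 for 41 genes at least 16-fold higher in 769-P, against 26 for the 10469 tested genes with a promoter in the table. The quartiles were 8 and 33 for the first group, 10 and 37 for the second, and 17 and 34 over the tested genes. The lower quartile was thus lower in both groups, and the difference was not tested.

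The line difference was also measured under the drug, in arrays that shared the fit, the filter and the choice of probe set with the DMSO arrays. After 6 h of dasatinib in both lines, 59.6% of tested genes were called between the lines, after 12 h 61.0% and after 24 h 64.4%. Of the 7549 genes called under DMSO, 6368 were called in the same direction at 6 h (84.4% of the DMSO calls and 83.1% of the 6 h calls), 6125 at 12 h (81.1% and 78.1%) and 5771 at 24 h (76.4% and 69.7%). Those called in the opposite direction numbered 67, 155 and 362. Of the 1895 genes at least 2-fold apart under DMSO, 1872 (98.8%) were called in the same direction at 6 h, 1846 (97.4%) at 12 h and 1804 (95.2%) at 24 h, and 3, 7 and 20 were called in the opposite direction. The 30 largest differences were called in the same direction at all 3 times, and the smallest of them at 24 h was 3.43 in size. CXCL6, for example, differed by 10.59 at 24 h, HIF1A by 6.11 and WT1 by -5.73.

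Part of the line difference moved with the drug. The change of the line difference from DMSO to 24 h was called in 4629 genes (36.0%), upward in 1780 and downward in 2849. Of the 20 genes at least 2-fold apart under DMSO and called in the opposite direction at 24 h, 8 were at least 2-fold apart at 24 h too, and both values are given. The Notch-related ligand DNER differed by 2.94 ± 0.21 under DMSO and by -1.85 ± 0.21 at 24 h, and the adaptor SORBS2 by 1.26 ± 0.15 and -2.04 ± 0.15. FAT4, an atypical cadherin, went to -1.13 at 24 h, against 1.64 under DMSO, and the retinaldehyde dehydrogenase ALDH1A3 to -1.15, against 1.60. In the other direction, the RAC activator DOCK2 differed by 2.08 at 24 h, against -1.34 under DMSO, FGB by 1.12, against -1.87, the kynureninase KYNU by 1.13, against -1.73, and the TGF-beta target PMEPA1 by 1.03, against -1.08. Among genes given above, and chosen after their values were seen, the difference of MMP1 was 0.08 at 24 h, against -3.18 under DMSO, that of KRT7 was -0.23, against -1.75, and that of CDH1 was 5.21, against 1.31. COL5A2 differed by 3.28 at 24 h, against 6.28 under DMSO, and DKK1 by 0.86, against 3.13.

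**Figure D5:**
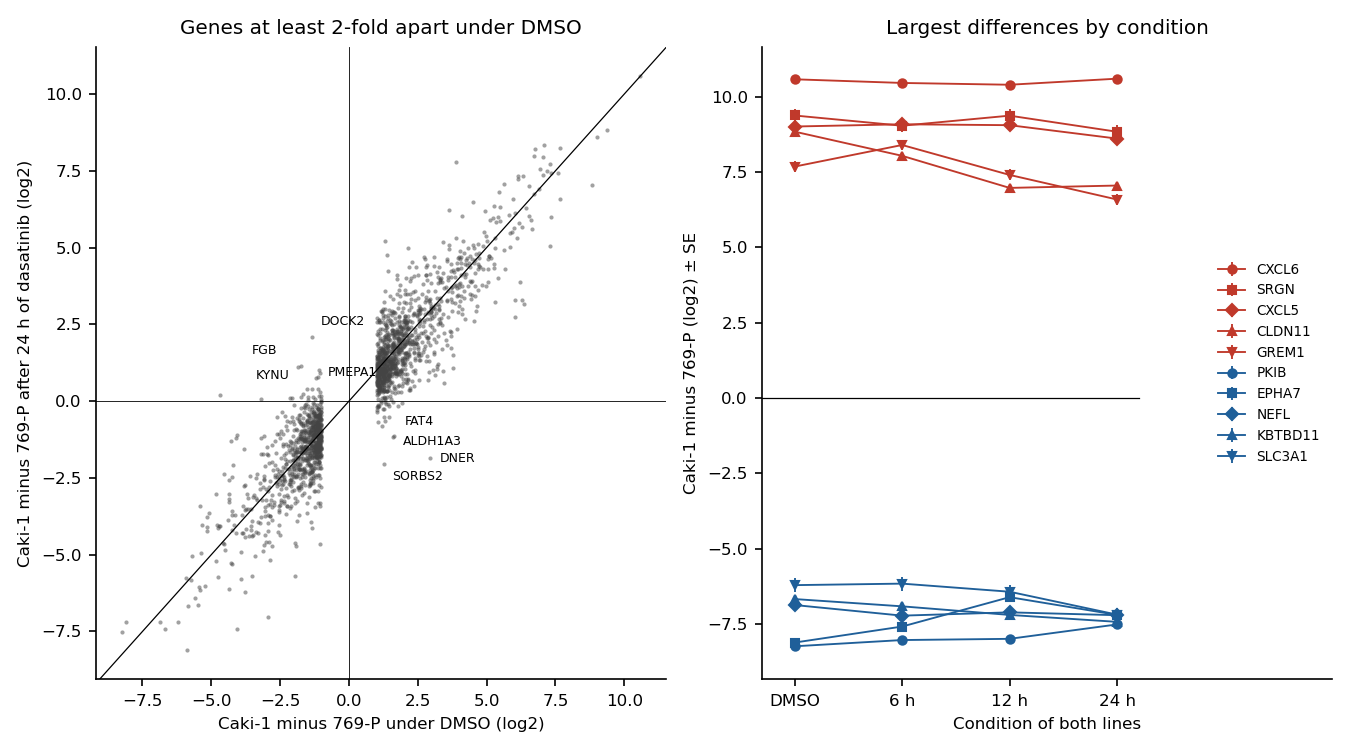
Left, the Caki-1 minus 769-P difference under DMSO (x axis) and after 24 h of dasatinib (y axis), in log2 units, for genes called and at least 2-fold apart under DMSO, with the 8 genes named that turned round by at least 2-fold. Right, the difference ± SE under DMSO and after 6, 12 and 24 h for the 5 largest genes of each direction; all 10 stay on their side, and CXCL6 is at 10.57 under DMSO and 10.59 at 24 h.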

How the data were processed

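The deposited table held a log2 signal for every probe set on every array, computed by the authors; the submitters' processing notes name MAS5 without settings. MAS5 in its usual form needs mismatch probes and this array carries perfect-match probes only, so how the signal was computed is uncertain; array medians (6.01 to 6.08) show a common level. How that level was set is not given in the sources used here, and detection calls were not used. Per the labels' protocols, RNA was extracted with TRIZOL, cleaned on columns with DNase and labelled from the 3' end. Of 49395 probe sets (102 controls), 44988 named exactly 1 gene in the platform annotation of the array, 1832 several and 2569 none, controls included, which covered 18132 genes. The single-gene probe set with the highest mean over the 24 arrays stood for its gene.

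Genes entered the tests where the mean over the 12 arrays of at least 1 line lay above the 40th percentile of all probe sets (5.379 in Caki-1, 5.362 in 769-P). limma 3.58.1 (R 4.3.3, data.table version 1.17.8) fitted 8 group means on 24 arrays (16 residual degrees of freedom) with an intensity trend; adjusted p-values are from that fit unless a setting is named. The median SE was 0.107. The 15 largest non-overlapping genes per direction, list members and 30 genes by name were described; Y-linked genes and XIST are not named. Gene places and promoters are from RefSeq (GRCh38.p14). The members and the 46 lists were chosen with earlier results of these data known. Some genes of these lists were not analysed here. The fit was tested on simulated data.

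The arrays' number limits precision. Same-numbered arrays did not deviate together (correlations -0.012, 0.047 and 0.005), so no pairing was used.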

Additional observations from a re-analysis of the deposited data

Results flagged for a closer look

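For 19 of the 30 largest differences between the lines, the difference after 24 h of dasatinib departed from that under DMSO by the interaction test in limma, over all tested genes, of which 36.0% did so. All 19 kept their direction. Values are the 24 h line difference minus the DMSO line difference, on the log2 scale, so that a positive value is a move towards Caki-1; the cause was not tested.

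Among genes higher in Caki-1, the gap narrowed for FGFBP1 (-2.27, adjusted p = 8.59e-06), CLDN11 (-1.79, adjusted p = 3.05e-08), GDA (-1.34) and GREM1 (-1.09). It widened for TFPI2 (1.27, adjusted p = 1.18e-07), GJA1 (0.92) and COLEC10 (0.59, adjusted p = 0.0418).

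Among genes higher in 769-P, the gap narrowed for BEND4 (1.99, adjusted p = 4.4e-06), EPHA7 (0.92), PKIB (0.72) and GLDC (0.67). It widened for ID4 (-2.22, adjusted p = 1.84e-08), LGALS2 (-1.13), SLC3A1 (-0.98), ISM1 (-0.81), ABCC2 (-0.81), KBTBD11 (-0.76), DOCK8 (-0.72) and CXADR (-0.62). The dim line of most of these genes lay near the floor of the signal range.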

How the results depend on the processing

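With a minimum of 2-fold in the test, 730 genes were called higher in Caki-1 and 521 in 769-P, 241 list members were called, and the change of the line difference at 24 h was called in 96 genes upward and 89 downward. Leaving out single arrays gave 3448 to 3614 genes higher in Caki-1 and 3505 to 3713 in 769-P under DMSO, 640 to 664 called list members, and 1533 to 1813 upward and 2515 to 2824 downward changes at 24 h. The same at each time gave 3457 to 3584 and 3712 to 3757 at 6 h, 3502 to 3608 and 3849 to 3979 at 12 h, and 3481 to 3758 and 4265 to 4460 at 24 h. With the replicate number as a replicate block, 3743 genes were higher in Caki-1 and 3907 in 769-P under DMSO. All other totals, over all genes and over all list members, stayed within 1.5 times of those reported. This held under the 6 DMSO arrays alone, no intensity trend, other filters, quantile normalization, median centring, array weights and other choices of probe set. Of calls, 47.8% to 50.3% were higher in Caki-1 under these settings, and 58.4% with the 2-fold minimum. Of the 30 largest genes and the 25 tested by name, no called gene changed sign in a setting that tested it; the filter in both lines tested 28 of the 55 (5 of the 30 largest) and the 60th percentile 52. Uncalled ABL1 turned to -0.02 with the mean of all probe sets. With the mean of all probe sets, 33 calls reversed and 6279 were kept, and 266 genes had called probe sets in both directions; the direction of HLA-C turned in this way. Signal near the floor of the range limits the size of the largest folds. Counts of single lists could move by more than 1.5 times. Mitosis genes higher in 769-P numbered 14 with the 6 DMSO arrays alone, against 9. Tumour suppressor and chromatin genes of renal carcinoma higher in Caki-1 numbered 5 with the mean of all probe sets, against 8. Of the 46 lists, the filter in both lines reversed the balance of 1 (cadherins) and moved 3 to or from a tie. The 6 DMSO arrays alone, quantile normalization, median centring and the mean of all probe sets reversed none and moved 2, 2, 1 and 6 to or from a tie; with the last, the median of the neural and other ectopic lineage genes turned to 0.05, against -0.13. For list counts beyond those 4 settings, and for the change at 24 h, settings were chosen after seeing the data. KRT8 lost its call without Caki-1 replicate 1 (adjusted p = 0.0537), 769-P replicate 1 (adjusted p = 0.0781) or 769-P replicate 2 (adjusted p = 0.0692), and KRT18 without 769-P replicate 1 (adjusted p = 0.0554).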
